A study of Mus musculus with 4 samples.

Results

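The genes described here control the sterol regulatory element-binding proteins (SREBPs), the transcription factors that set cholesterol and fatty acid synthesis. A list of 8 genes named them: Srebf1, Srebf2, Scap, Insig1, Insig2, Mbtps1, Mbtps2 and Stard4. A gene entered when a row of the value table carried its symbol alone, and the brightest such row by the mean of the 4 arrays stood for it. This gave 6 members of the 30142 genes measured, and each had 1 such row. Srebf1 and Mbtps2 lie on rows that also carry the symbol of another gene, and they have no value here. The row of each gene was thus chosen by its brightness, and the list itself was drawn up with differences between these arrays known, so the members' values are given as a description.

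SREBPs are made as membrane proteins of the endoplasmic reticulum, where SCAP binds them. When sterols are plentiful, the INSIG proteins hold SCAP in the endoplasmic reticulum. When sterols are scarce, SCAP carries the SREBP to the Golgi, a pair of proteases encoded by Mbtps1 and Mbtps2 cut it, and the released part enters the nucleus and activates genes of sterol synthesis. Srebf2, Insig1 and Stard4 are known SREBP targets as well as parts of the system, whereas Scap and Mbtps1 act on the precursor. Stard4 moves cholesterol between membranes inside the cell and is not a surface receptor, so no member measures lipoprotein uptake.

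The cells were 4T1, a metastatic mouse mammary carcinoma line that stands in for triple-negative breast cancer. One group of 2 arrays held cells with a scramble control (NC). The other group of 2 held cells labelled as MCT-1 silencing (shMCT-1), whose clones were kept under puromycin for 2 weeks at 0.5 μg/ml. The sources used here do not say whether the NC cells were selected too, or whether the 2 shMCT-1 samples were the same clone. All were grown in the same serum-containing RPMI-1640 medium, a condition in which lipoproteins of the serum supply cholesterol. The design text calls the replicates of each group independent and biological.

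Values were log2 expression summaries of whole-transcript arrays. Mcts1, the gene that encodes MCT-1, was at 7.86 and 8.05 on the NC arrays and at 7.81 and 7.89 on the arrays labelled shMCT-1. These ranges overlap, and the log2 difference was -0.10 (limma, SE 0.122, adjusted p = 0.945), so a lower level was not detected and the second group is named by its label throughout. NC replicate 1 stood apart from part of the series. Rows that differed by over 1 log2 unit numbered 830 between the NC arrays and 1965 between NC replicate 1 and shMCT-1 replicate 2, against 266 between both replicates 2. All 9 epithelial markers were brighter than the median row, and Epcam ranged from 12.36 to 12.69. Of these 9 markers, 7 were lower and 2 higher in the arrays labelled shMCT-1, against 54.2% of all genes higher. The median log2 difference of the 9 was -0.29. The keratins Krt14 and Krt19 were lower by more than that, with differences of -1.68 and -1.14. Lymphocyte markers lay between 2.80 and 3.61, fibroblast markers between 2.92 and 3.93 and endothelial markers between 3.13 and 4.24, near the median row at 3.68. Of 6 macrophage markers, 4 were brighter than the median row, whereas Adgre1 and Itgam stayed between 3.11 and 3.49. Among the brighter ones, Cd68 was higher on NC replicate 1 (10.15) than on the other 3 arrays (8.26, 8.55 and 9.0). In bulk RNA, fewer cells of a type and less RNA per cell cannot be told apart.

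Among the 6 members, Srebf2, Insig1 and Stard4 were higher on both arrays labelled shMCT-1 than on both NC arrays, by 0.58 to 0.72 log2 units. Scap and Insig2 overlapped between the groups, and Mbtps1 was lower by 0.10. None passed limma's adjustment over all 65956 rows, where 0 rows had an adjusted p under 0.05 (0% of rows). At an unadjusted p under 0.05, 3698 rows were counted, or 5.61%, and 3 of the 6 members were among them. Groups that did not overlap were found for 3 members higher and 1 lower in the arrays labelled shMCT-1. Over all genes the shares were 19.0% higher and 16.0% lower, and over the rows brighter than the median row 21.2% and 14.6%. Since results were known when the list was made, nothing is read from these member counts. With 2 arrays in each group, the smallest p of an exact two-sided permutation test is 0.333.

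**Figure D1:**
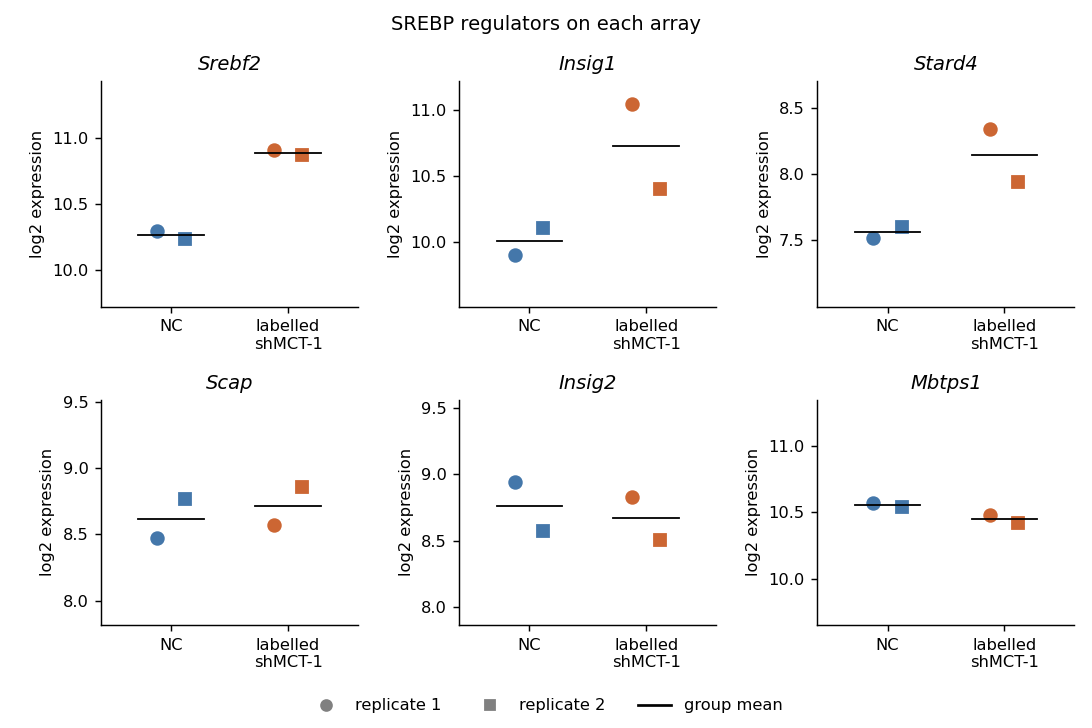
Log2 expression of the 6 SREBP regulators on each of the 4 arrays, with circles for replicate 1, squares for replicate 2 and lines at the group means, each panel spanning the same number of log2 units. Srebf2, Insig1 and Stard4 lie higher on both arrays labelled shMCT-1, while Scap and Insig2 overlap between the groups.

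Srebf2 encodes SREBP-2, the SREBP that mainly drives cholesterol synthesis. It was measured at 10.30 and 10.24 on NC replicates 1 and 2 and at 10.91 and 10.87 on shMCT-1 replicates 1 and 2. The arrays of each group lay close together and the groups were apart by 0.57 log2 units, the widest gap among the members. The mean was 10.27 ± 0.043 in NC and 10.89 ± 0.030 in the other group (SD, n = 2 each), or 1.54-fold higher. Its log2 difference was 0.62 (limma, SE 0.104, 95% interval 0.35 to 0.89, adjusted p = 0.882). With any 1 array left out it stayed between 0.59 and 0.65, and without NC replicate 1 it was 0.65.

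The Srebf2 promoter is shown because SREBPs are known to act on their own gene through a sterol regulatory element there. The stretch holds the 250 bases before the annotated start (RefSeq, GRCm38.p6, chr15:82147019-82147268, plus strand). Capitals mark matches to a sterol element core spelled TCACNCCA, a CCAAT box spelled CCAAT and a GC box spelled GGGCGG, each on either strand.
Srebf2: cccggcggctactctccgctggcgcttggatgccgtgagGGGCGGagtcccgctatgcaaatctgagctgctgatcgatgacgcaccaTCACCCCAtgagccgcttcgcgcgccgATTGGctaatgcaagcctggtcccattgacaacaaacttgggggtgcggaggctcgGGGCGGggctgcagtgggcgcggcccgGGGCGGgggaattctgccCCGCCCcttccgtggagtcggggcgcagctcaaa
The sterol element core matched once, at 162 bases before the start, followed by a CCAAT box at 135 bases before it. GC boxes matched 5 times in the window that runs on to 50 bases after the start. In RefSeq windows of 300 bases, from 250 before to 50 after a start, the core matched in 4.36% of 32851 windows, a CCAAT box in 37.41% and a GC box in 35.66%. A match describes the letters and does not show that a factor binds.

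Insig1 encodes the INSIG protein that is itself an SREBP target and closes a feedback loop. It was at 9.90 and 10.11 on the NC arrays and at 11.05 and 10.40 on the arrays labelled shMCT-1. Both of the latter were above both NC arrays, but they lay 0.64 log2 units apart from each other. The mean was 10.01 ± 0.15 in NC and 10.72 ± 0.45 in the other group (SD, n = 2 each), or 1.64-fold higher. The log2 difference of 0.72 had an SE of 0.242 and a 95% interval from 0.084 to 1.35 (limma, adjusted p = 0.882). Much of it came from 1 array, since leaving out shMCT-1 replicate 1 gave 0.40 and leaving out shMCT-1 replicate 2 gave 1.04. Without NC replicate 1 it was 0.61.

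The Insig1 promoter is shown beside that of Srebf2, since both genes were higher on the same arrays. The 250 bases before its annotated start (RefSeq, GRCm38.p6, chr5:28071162-28071411, plus strand) are printed in the same way, with an E-box spelled CACGTG in capitals too.
Insig1: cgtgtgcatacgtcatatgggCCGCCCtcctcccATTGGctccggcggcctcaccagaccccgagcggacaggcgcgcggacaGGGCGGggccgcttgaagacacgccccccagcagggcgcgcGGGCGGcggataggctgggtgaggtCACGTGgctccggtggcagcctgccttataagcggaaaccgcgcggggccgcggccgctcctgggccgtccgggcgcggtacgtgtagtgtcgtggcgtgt
The E-box lay 101 bases before the start, the CCAAT box 216 bases before it, and GC boxes matched 3 times. The sterol element core spelled above did not match in this window, which says only that these letters are not in it. An E-box matched in 7.15% of all windows. The windows of both annotated Scap starts overlap and share an E-box, and neither Insig2 at its 3 starts nor Mbtps1 had one. The core matched in Srebf2 alone among the 5 measured members with a window, and Stard4 has no window here. Of the cholesterol synthesis enzymes, 15 had a window, and 14 of these held a CCAAT box and 14 a GC box at 1 or more starts, against 41.06% and 38.2% of all 27025 genes. The core matched in 2 of those 15, against 4.97% of all genes.

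**Figure D2:**
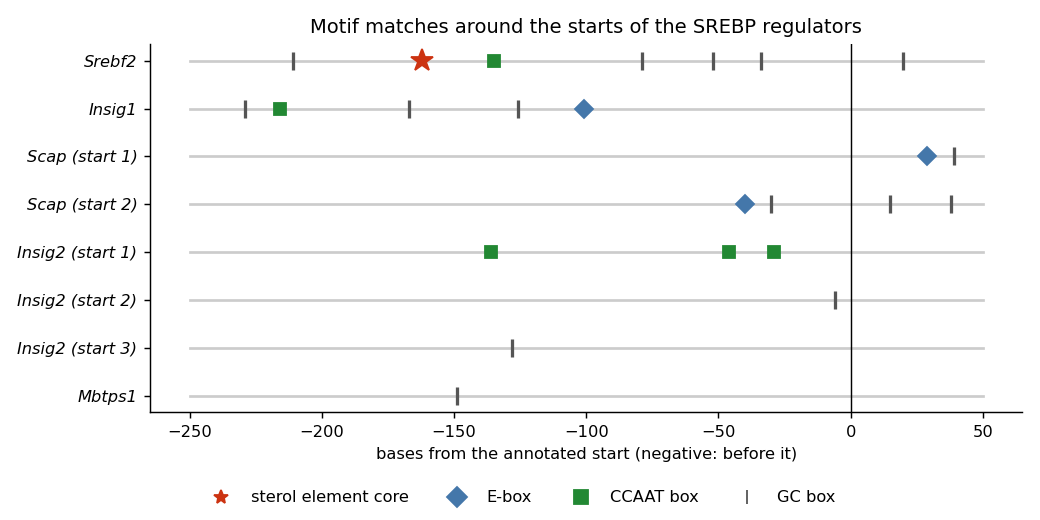
Positions of motif matches in RefSeq windows around the annotated starts of the 5 members with a window, in bases from the start, 1 line for each start. Srebf2 holds the 1 match to the sterol element core at -162, and Insig1 and Scap hold the E-boxes.

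Insig2, the paralog of Insig1, also retains SCAP but is not known as a general SREBP target. It was at 8.95 and 8.58 on the NC arrays and at 8.83 and 8.51 on the arrays labelled shMCT-1. The groups overlapped, and in both of them replicate 1 was the higher array, by 0.37 log2 units in NC and 0.32 in the other group. The log2 difference was -0.09 (limma, SE 0.189, 95% interval -0.59 to 0.40, adjusted p = 0.979). Its sign turned to 0.093 without NC replicate 1 and to 0.069 without shMCT-1 replicate 2. The interval leaves room for a difference in either direction.

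Scap, the escort and sterol sensor, was at 8.47 and 8.76 in NC and at 8.57 and 8.86 in the arrays labelled shMCT-1. Here replicate 2 was the higher array of both groups, by 0.29 log2 units in NC and 0.28 in the other, the reverse of Insig2. Taken by replicate number, the groups differed by 0.099 and 0.091. The log2 difference over all arrays was 0.095 (limma, SE 0.166, 95% interval -0.34 to 0.53, adjusted p = 0.972), and its sign turned, to -0.050 when NC replicate 1 was left out and to -0.046 when shMCT-1 replicate 2 was. For Scap and Insig2 the spread between replicates was thus larger than the difference between groups.

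Mbtps1 encodes site-1 protease, which makes the first cut in the SREBP precursor. It was at 10.57 and 10.54 on the NC arrays and at 10.48 and 10.42 on the arrays labelled shMCT-1. The groups did not overlap, but the gap between them was 0.06 log2 units. The mean was 1.08-fold higher in NC, with a log2 difference of -0.10 (limma, SE 0.104, 95% interval -0.38 to 0.17, adjusted p = 0.934). It stayed between -0.13 and -0.075 with 1 array left out.

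Stard4, the cytosolic sterol carrier and SREBP-2 target, was at 7.52 and 7.60 on the NC arrays and at 8.34 and 7.94 on the arrays labelled shMCT-1. As with Insig1, both labelled arrays were above both NC arrays, and replicate 1 was the higher of them, by 0.40 log2 units. The mean was 7.56 ± 0.056 in NC and 8.14 ± 0.28 in the other group (SD, n = 2 each), or 1.5-fold higher. Its log2 difference was 0.58 (limma, SE 0.167, 95% interval 0.15 to 1.02, adjusted p = 0.882). Leaving out shMCT-1 replicate 1 gave 0.38, leaving out the other labelled array gave 0.78, and leaving out NC replicate 1 gave 0.54.

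**Figure D3:**
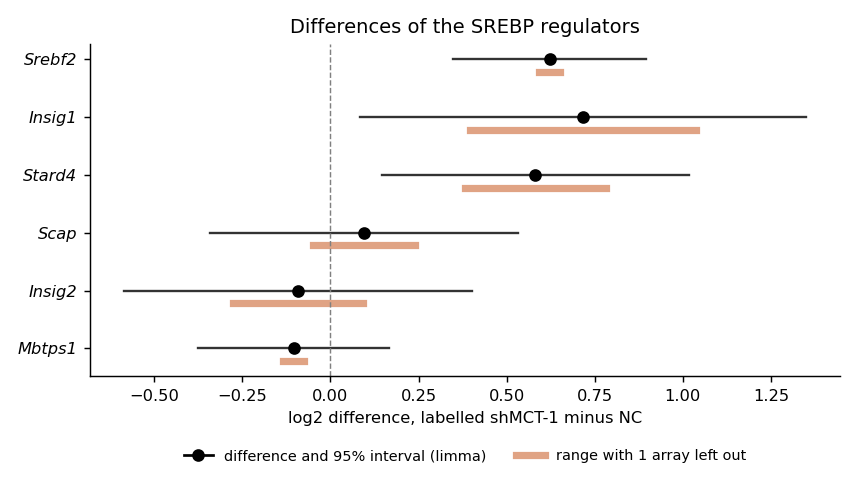
Log2 difference of each SREBP regulator, labelled shMCT-1 minus NC, with its 95% interval from limma (black) and the range of the difference with 1 array left out (orange). The intervals of Srebf2, Insig1 and Stard4 lie above 0 before adjustment over all rows, and those of Scap, Insig2 and Mbtps1 include 0.

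Over the 4 arrays the members fell into unlike patterns. Each gene was centred on its own mean, and the distance between patterns was taken as the root mean square difference in log2 units over the 4 arrays. Insig1 and Stard4 were the nearest pair at 0.12, followed by Srebf2 and Stard4 at 0.14 and by Insig2 and Mbtps1 at 0.15. Srebf2 lay 0.24 from Insig1, 0.31 from Scap and 0.39 from Insig2. The pair of INSIG genes was among the farthest apart, at 0.47. Taken between arrays of the same replicate number, Srebf2 differed by 0.61 and 0.63, Insig1 by 1.14 and 0.29, and Stard4 by 0.82 and 0.34. The Srebf2 difference was thus alike in both, and those of Insig1 and Stard4 were larger between replicates 1.

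Genes with patterns nearest to Srebf2 were sought among 12395 genes brighter than the median row, predicted genes left out. The 5 nearest were Camk1d, a calmodulin-dependent kinase (distance 0.031), Hhip, a hedgehog-binding protein (0.05), the olfactory receptor gene Olfr1033 (0.05), Gpc4, a glypican (0.054), and Mrpl13, a mitochondrial ribosomal protein (0.055). Mrpl13 was at 9.79 and 9.76 in NC and at 10.32 and 10.26 in the arrays labelled shMCT-1. The others were much dimmer. On the NC arrays Olfr1033 was at 3.57 and 3.65, below the median row at 3.68, and Hhip was at 3.85 on both. Camk1d was at 4.32 and 4.25 there, and Gpc4 at 4.62 and 4.67. None of these 5 is in the sterol lists used here, and with 4 arrays a near pattern is a description only. In the same order Stard4 was at rank 86, Insig1 at 1129, Scap at 4543, Mbtps1 at 7336 and Insig2 at 8303. The 15 cholesterol synthesis enzymes were spread widely, from rank 43 for Mvk, the mevalonate kinase gene, to 9658 for Idi1 and 10477 for Dhcr7, a sterol reductase gene.

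The enzymes that SREBP-2 controls give the setting for these values. Of 20 cholesterol synthesis enzymes listed, 15 had a row of their own, and 14 of the 15 were higher on average in the arrays labelled shMCT-1, 12 of them with groups that did not overlap. The remaining enzyme gene, Dhcr7, differed by -0.25, and its groups did not overlap. Over all genes 54.2% were higher on average. Groups did not overlap in 19.0% that were higher and in 16.0% that were lower. None passed after adjustment, and the list was chosen with results known. Their median log2 difference was 0.60, against 0.014 for all genes. Lss, the lanosterol synthase, was at 7.80 and 8.18 in NC and at 9.14 and 8.94 in the other group. Sqle, the squalene epoxidase, was at 11.47 and 11.82 against 12.79 and 12.53. For Cyp51, the lanosterol demethylase, the values were 10.17 and 10.46 against 11.15 and 10.97, and for Idi1, the isopentenyl diphosphate isomerase, 10.96 and 11.57 against 12.76 and 12.31. In all 4 genes both labelled arrays exceeded both NC arrays, and shMCT-1 replicate 1 was the higher of the labelled arrays.

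That order was shared by Insig1 and Stard4. Of the 15 enzymes, 10 were higher on shMCT-1 replicate 1 than on replicate 2, against 52.9% of all genes. Leaving out shMCT-1 replicate 1 gave a list median of 0.41, and leaving out shMCT-1 replicate 2 gave 0.83. NC replicate 1 was the lowest of the 4 arrays in 11 of the 15. The share over all genes was not computed, so nothing is read from this count. Without NC replicate 1 the median was 0.60. Srebf2 itself differed by 0.042 between the labelled arrays.

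**Figure D4:**
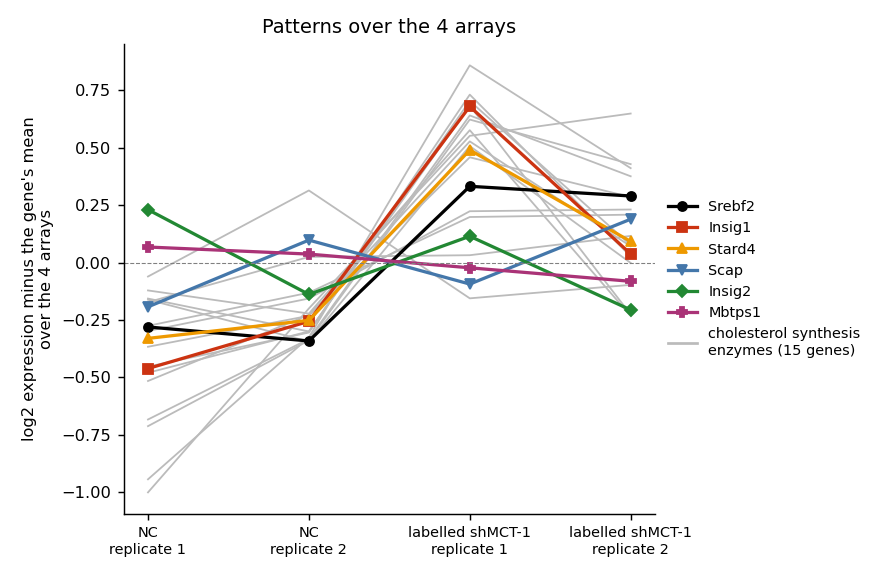
Log2 expression of each SREBP regulator (coloured) and of the 15 measured cholesterol synthesis enzymes (grey) on the 4 arrays, each centred on its own mean. Insig1 and Stard4 peak on shMCT-1 replicate 1 with 10 of the enzymes that are higher there than on replicate 2, Srebf2 is level over both labelled arrays, and Scap and Insig2 move in opposite ways between replicates 1 and 2.

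Fatty acid synthesis, which SREBP-1c mainly controls, showed a smaller difference. Of 13 measured enzymes 10 were higher, against 54.2% of all genes. Groups did not overlap in 6, all higher, against 19.0% of all genes. The list median was 0.23. It was 0.11 when shMCT-1 replicate 1 was left out and was 0.41 when replicate 2 was. Scd1, the stearoyl-CoA desaturase, was at 10.33 and 10.06 in NC and at 11.79 and 11.40 in the arrays labelled shMCT-1 (log2 difference 1.40, SE 0.185). Scd1 had 2 rows, of which this was the brighter, and the mean over both gave 1.21. Elovl6, an elongase, differed by 0.91, Fasn, the fatty acid synthase, by 0.50 and Fads1, a desaturase, by 0.46. Without NC replicate 1 these were 0.60, 0.35 and 0.28, and Scd1 was at 1.54. None passed limma's adjustment, each with an adjusted p of 0.882.

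Partners that bind DNA with SREBPs were also measured. Of 9 cofactor and turnover genes 7 were higher, against 54.2% of all genes, and none passed. Groups did not overlap in 4, all higher, against 19.0% of all genes. Nfya, a subunit of the CCAAT-binding factor NF-Y, was at 8.37 and 8.53 in NC and at 8.99 and 9.28 in the arrays labelled shMCT-1, a log2 difference of 0.69 (limma, SE 0.150, adjusted p = 0.882) that stayed between 0.54 and 0.83 with 1 array left out. The coactivator Ep300 differed by 0.42, the subunit Nfyc by 0.29 and the GC-box factor Sp1 by 0.16. Nfyb, the remaining NF-Y subunit, was at 9.09 and 8.97 against 8.98 and 9.0, and its groups overlapped. Mir33, the microRNA gene within Srebf2, was dim at 2.82 and 2.89 in NC and 3.42 and 2.94 in the other group, below the median row on every array.

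Genes that move or retain SCAP and INSIG were divided. Among 12 measured genes of COPII vesicles and Golgi tethering, 7 were higher and 5 lower, with a median of 0.014, as for all genes. The groups did not overlap in 4, all lower, against 16.0% of all genes. Sec24c, a cargo-selecting COPII subunit, was at 10.89 and 10.80 in NC and at 10.25 and 10.35 in the arrays labelled shMCT-1 (limma, log2 difference -0.55, SE 0.110, adjusted p = 0.882). Sec23a was at 10.51 and 10.08 against 9.87 and 9.75, and its difference of -0.48 was -0.27 without NC replicate 1. Its paralog Sec23b was at 10.61 and 11.00 against 10.98 and 11.19, with groups that overlapped. Paqr3, which tethers SCAP at the Golgi, differed by -0.16.

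Of 12 measured genes of INSIG and sterol-sensor turnover, 6 were higher and 6 lower (median -0.024). Erlin2, which helps degrade sterol-regulated proteins of the endoplasmic reticulum, was at 10.57 and 10.71 in NC and at 10.22 and 10.24 in the arrays labelled shMCT-1. Its difference was -0.41, and that of its paralog Erlin1 was 0.21 with overlapping groups. Erlin1 had 2 rows, and the mean over both gave 0.32. The ATPase gene Vcp differed by -0.15 and Faf2 by -0.18. Other membrane proteins cut by either or both of the proteases that cut SREBPs gave 4 higher and 4 lower of 8 (median -0.017). Creb3 was at 8.33 and 8.29 against 7.86 and 7.92, a difference of -0.42, whereas Atf6 differed by 0.16, Creb3l2 by -0.27 and Gnptab by -0.12. None of the genes in these lists passed.

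Sterol carriers and storage genes lay mostly the other way from Stard4. Of 13 measured, 10 were lower and 3 higher, against 54.2% of all genes higher, with a median of -0.16. Some of the lower ones differed little, such as Gramd1c at -0.007. The groups did not overlap in 5, all lower, against 16.0% of all genes. Npc2, the lysosomal cholesterol-binding protein, was at 9.0 and 8.48 in NC and at 7.98 and 8.02 in the arrays labelled shMCT-1, a log2 difference of -0.74 (limma, SE 0.199, adjusted p = 0.882). Npc1, its membrane partner, was at 7.30 and 6.77 against 6.61 and 6.54. Nceh1, a cholesteryl ester hydrolase, was at 7.47 and 7.30 against 6.87 and 6.89, and Gramd1a, which moves sterol from the plasma membrane, was at 8.70 and 7.92 against 7.73 and 7.72.

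NC replicate 1 was the highest of the 4 arrays for 9 of these 13 genes, against 26.3% of all genes. Without it the differences were -0.47 for Npc2, -0.20 for Npc1, -0.42 for Nceh1 and -0.19 for Gramd1a, and the list median was -0.11. The START-domain relatives of Stard4 had overlapping groups, with log2 differences of -0.031 for Stard3, -0.058 for Stard5 and 0.043 for Stard6, which was -0.13 without NC replicate 1. Of the 6 macrophage markers, 3 were highest on NC replicate 1, Cd68, Csf1r and Itgam, against 26.3% of all genes. Another 2 of the 6 were lowest on that array. The log2 of the summed linear signal of all 6 markers was 10.67 and 9.69 in NC and 9.98 and 9.95 in the arrays labelled shMCT-1. Itgam and Adgre1 stayed below the median row. The part of the macrophage markers in these values was not tested.

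Lipoprotein receptors and efflux genes differed little. Lrp8 was at 9.56 and 10.12 in NC and at 9.83 and 10.22 in the arrays labelled shMCT-1, with overlapping groups, and Scarb1 was at 8.31 and 8.27 against 8.36 and 8.45. Vldlr (-0.25) and Lrp1 (0.13) had lower signals, Vldlr at or below the median row on 3 of the 4 arrays. The oxysterol receptor gene Nr1h3 differed by 0.015, its partner Rxra by -0.14, and the exporters Abca1 and Abcg1 by 0.03 and 0.094, with Abca1 below the median row on every array. None passed limma's adjustment, and for such dim rows a change could go undetected.

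**Figure D5:**
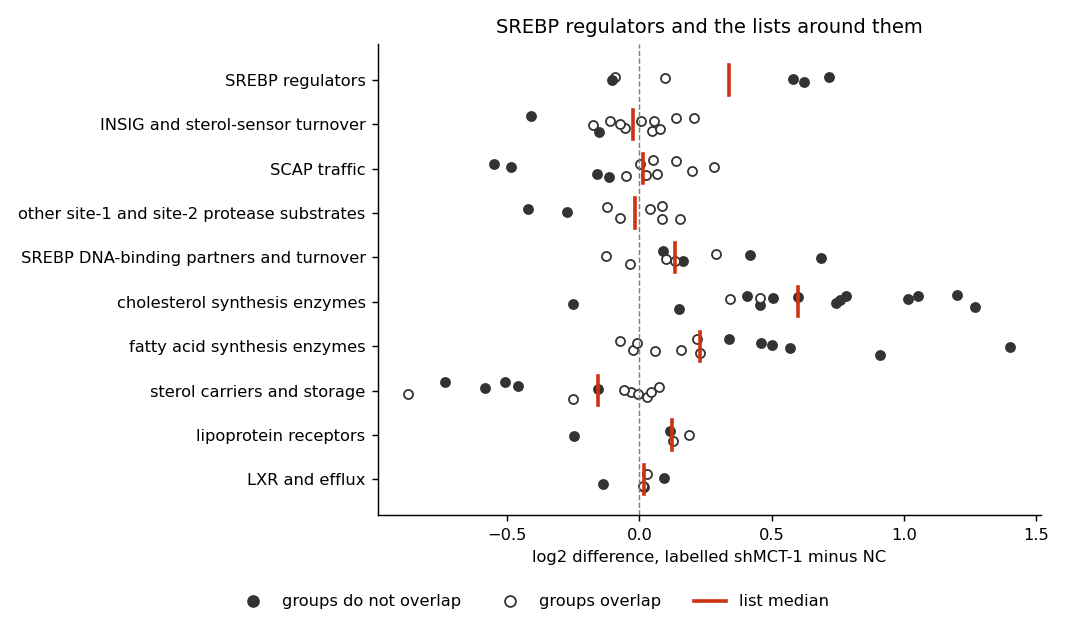
Log2 difference, labelled shMCT-1 minus NC, of every measured gene in the list of SREBP regulators and in 9 lists around it, with filled points where the groups do not overlap and red lines at the list medians. Cholesterol synthesis enzymes lie furthest to the right with a median of 0.60, and sterol carriers and storage genes lie to the left with a median of -0.16.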

How the data were processed

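The authors deposited log2 expression values made with Affymetrix Expression Console and RMA, per the submitters' processing notes. The sources used here do not give versions, options or the build. RMA can compress differences of dim and very bright rows. Values ran from 1.29 to 19.88, with array medians from 3.68 to 3.73, and 0 columns were left out. Of 65956 rows, 30604 carried 1 gene symbol, 2146 several and 33206 none in the probe table. The number of arrays limits the precision.

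Differences, shMCT-1 minus NC, were fitted on all rows with limma 3.58.1 in R 4.3.3 (lmFit, eBayes, two-sided, Benjamini-Hochberg adjustment, threshold 0.05, no block), with 2 residual and 2.72 prior degrees of freedom, and the fit was tested on simulated data. P-values measure only the spread between these samples. Members and lists were chosen with earlier results of these data known. Genes named were the members, Mcts1, up to 4 genes with the lowest unadjusted p in each list, and the 5 genes nearest to Srebf2. Marker genes, Nfyb, Mir33, the START relatives and those given ranks were chosen after their values were seen. Promoters came from RefSeq (GRCm38.p6), with a window for 5 of the 6 members. Alternatives were other moderation, scaling, a filter on dim rows, a replicate block and leaving out each array.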

Additional observations from a re-analysis of the deposited data

How the results depend on the processing

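With each of the 10 alternatives to the fit, 0 rows passed limma's adjusted threshold, and the lowest adjusted p of a member under any alternative was 0.313. Of 66 member values under alternatives, 62 kept their direction. Other moderation, the filter on dim rows, the replicate block and the mean over rows cannot change a member's difference here. Those values could not reverse, so the count is no measure of robustness. The 4 that reversed were Scap, which ran from -0.050 to 0.24 with 1 array left out (-0.050 without NC replicate 1, -0.046 without shMCT-1 replicate 2), and Insig2, which ran from -0.28 to 0.093 (0.093 and 0.069 without the same arrays). With the replicate number as a block, 0 rows passed. Each number occurs once in each group, so a block cannot change the differences of the 6 members. They stayed at 0.62 for Srebf2, 0.72 for Insig1 and 0.58 for Stard4. Over all rows, same-numbered arrays deviated together with r = 0.42, and 2 pairs do not settle whether the numbers pair the samples. A further quantile normalisation gave 0.60, 0.70 and 0.56 for these 3 genes, and median centring gave 0.60, 0.69 and 0.56. Efflux genes higher numbered 4 of 5, but 2 of 5 after quantile normalisation, 2 of 5 after median centring, and from 1 to 4 with 1 array left out. Among rows brighter than the median row they were 2 of 3, since that filter removed the other 2 genes. Genes of SCAP traffic higher numbered 7, and from 3 to 8 with 1 array left out. Apart from the filter, the cause was not tested. Each member had 1 row, so the mean over rows changed nothing. Dim rows limit what can be seen of Abca1, Vldlr and Mir33.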
